A study of Mus musculus with 2 samples.

Results

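The Snail and Zeb genes encode 5 zinc finger transcription factors, Snai1, Snai2, Snai3, Zeb1 and Zeb2. They were taken by gene symbol from gene tables of mouse facial prominence RNA, and all 5 matched 1 row each of the 43346 rows with a gene identifier. The RNA came from 13.5-day embryos of the strain labelled B6NCrl, with males and females pooled. There were 2 libraries, replicates 1 and 2, in 1 group, so no comparison between conditions could be made. The labels give them separate biosamples and 1 shared donor identifier, and the spread between them may be partly technical.

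Snail proteins bind the E-box sequence CACCTG, which reads CAGGTG on the other strand, and through an N-terminal SNAG domain, recruit enzymes that silence chromatin. Zeb proteins carry a cluster of zinc fingers near each end, bind E-boxes in pairs, and work with the CtBP co-repressors and with Smads. Both families repress epithelial adhesion genes such as E-cadherin during epithelial-mesenchymal transition (EMT), the change that frees neural crest cells from the neural tube, and the crest supplies most of the facial mesenchyme.

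Epithelial microRNAs of the miR-200 family target Zeb mRNAs, and their mature sequences are shown because they fall into groups by the seed, bases 2 to 8, which is in capitals (RefSeq, GRCm38.p6). The first pair below pairs with the site CAGTGTT and the other 3 with CAGTATT.
mmu-miR-200a-3p: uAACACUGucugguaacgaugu
mmu-miR-141-3p: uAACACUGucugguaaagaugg
mmu-miR-200b-3p: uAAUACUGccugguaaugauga
mmu-miR-200c-3p: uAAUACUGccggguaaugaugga
mmu-miR-429-3p: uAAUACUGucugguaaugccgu

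The leading Zeb2 transcript, Zeb2-201, held 8 such sites in its 3′ untranslated region (UTR) of 1450 nt, 3 of CAGTGTT and 5 of CAGTATT. They are shown as the sites that the transcript results below turn on, with the site in capitals and its first base counted from the start of the UTR (GENCODE M21 on GRCm38, minus strand).
Zeb2 site at base 209, chr2:44988356-44988372: attttgtaCAGTGTTaa
Zeb2 site at base 393, chr2:44988172-44988188: ccatacatCAGTATTtt
Zeb2 site at base 458, chr2:44988107-44988123: cagtgcatCAGTATTac
Zeb2 site at base 741, chr2:44987824-44987840: tccttgtaCAGTGTTca
Zeb2 site at base 782, chr2:44987783-44987799: accagcttCAGTGTTaa
Zeb2 site at base 820, chr2:44987745-44987761: acccgtgtCAGTATTag
Zeb2 site at base 905, chr2:44987660-44987676: aattttgtCAGTATTac
Zeb2 site at base 1039, chr2:44987526-44987542: gtagtgtaCAGTATTat

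Of 7682 genes with a longest coding-transcript 3′ UTR at least as long, read over the same number of bases, 19.1% held CAGTGTT and 0.182% held it 3 or more times. CAGTATT was held by 14.6%, and 0.026% held it 5 or more times. Zeb1-201, with 2401 nt of 3′ UTR, had 4 CAGTGTT and 5 CAGTATT. For UTRs of that length (4151 genes) 31.3% held CAGTGTT and 22.7% CAGTATT, and 0.145% and 0.0482% held as many. The genes compared include Zeb1 and Zeb2 themselves, so these shares are not an independent background. The Snail UTRs had fewer matches. Snai1 had 1 CAGTATT and 1 site for miR-34a in 731 nt. Snai2 had 1 of each miR-200 site and 1 for miR-203 in 1089 nt, and Snai3 had no match to any of the 5 sites searched in 645 nt. A match is a description of the letters, not a tested site. The lengths of Snai2, Snai3, Zeb1-201 and Zeb2-201 differ between the deposited model and release M21 by 10, -39, 4 and -53 nt (deposited minus M21), so positions in these UTRs hold for M21 only. The 8 hairpin rows of these and 3 other opposing microRNAs were listed at 0 counts in both libraries. Their effective length in the files was 0, or 3 for Mir34a, so their level could not be measured in these libraries of RNA over 200 nt.

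Replicate 1 held 28542452 expected counts on gene rows and replicate 2 held 22719352. A gene with no counts could reach 0.105 CPM in replicate 1 and 0.132 CPM in replicate 2 (3 counts). The RNA held markers of several cell types. Summed over 5 markers each, mesenchyme genes had 923 and 906 TPM in replicates 1 and 2, and epithelium genes had 1020 and 933 TPM. Macrophage, Schwann cell, melanocyte and skeletal muscle markers summed to 14.0 to 49.5 TPM, and endothelial and neuronal markers to 78.9 to 109 TPM. Erythroid markers had the largest sums, 6329 and 7515 TPM, with 3 of 5 genes past 1.5-fold and higher in replicate 2. Liver markers summed to 3.47 TPM in replicate 1 and 198 TPM in replicate 2, and heart markers to 2.64 and 25.2 TPM, with 5 of 5 genes of each list higher in replicate 2. Their part in the values below was not tested. In such bulk RNA, more cells of a type and more RNA per cell cannot be told apart.

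Snai1, the founding repressor of E-cadherin and needed for mesoderm to leave the epithelium in mouse gastrulation, had the highest level. It lies at chr2:167538195-167542814, plus strand (ENSMUSG00000042821.7), and had 96.7 TPM in replicate 1 and 86.9 TPM in replicate 2, on 3114 and 2133 expected counts. The authors' credibility intervals were 90.9 to 97.5 TPM and 80.4 to 87.5 TPM. Its mean was 91.8 ± 6.95 TPM (SD, n = 2), higher than 92.5% of protein-coding genes.

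Snai2, also called Slug, is expressed in mouse neural crest and its mesenchyme, and losing it together with Snai1 in mouse crest impairs the palate. It lies at chr16:14705852-14709385, plus strand (ENSMUSG00000022676.6), and had 67.4 and 76.7 TPM on 2753 and 2390 expected counts. Its mean was 72.0 ± 6.60 TPM. Snai1 was the higher of the pair in both libraries, by 0.35 ± 0.24 on the log2 scale, and its intervals did not overlap those of Snai2. The gap was smaller in replicate 2 than in replicate 1. Without length correction the order differed between libraries, with log2 ratios of expected counts of 0.18 in replicate 1 and -0.16 in replicate 2.

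Zeb2, whose loss in mouse blocks neural crest delamination and whose human gene is mutated in Mowat-Wilson syndrome, was at the level of Snai2. It spans chr2:44983632-45117395, minus strand (ENSMUSG00000026872.12), and had 71.4 TPM in replicate 1 and 65.2 TPM in replicate 2. Its mean of 68.3 ± 4.41 TPM rested on 6014 and 4894 expected counts. Snai2 over Zeb2 was -0.08 on the log2 scale in replicate 1 and 0.23 in replicate 2, so their order differed between libraries. Their intervals overlapped in replicate 1 (63.1 to 68.0 TPM for Snai2 and 67.0 to 75.2 TPM for Zeb2) and were apart in replicate 2 (71.1 to 77.1 against 61.4 to 68.4 TPM). Zeb1, whose loss in mouse gives craniofacial and palate defects, had 17.0 and 20.1 TPM (mean 18.5 ± 2.19) on 1285 and 1081 expected counts. It spans chr18:5591860-5775467, plus strand (ENSMUSG00000024238.9). Zeb2 exceeded it by 1.89 ± 0.26 on the log2 scale.

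Snai3, described in mouse mainly in skeletal muscle and lymphoid cells, had 0.92 and 0.96 TPM on 29 and 23 expected counts. It lies at chr8:122454208-122460733, minus strand (ENSMUSG00000006587.5). Its intervals, 0.611 to 1.26 and 0.595 to 1.36 TPM, span the 1 TPM used here as the detection level. When spike-in RNA was left out of the TPM total it had 1.06 TPM, so its call rests on that choice. A gene model of much longer span on the other strand, Gm20388, overlaps it and had 40.19 expected counts in replicate 1 and 368.61 in replicate 2. Strand is not given for these libraries, and overlap of exons was not checked. Whether the pair shares reads was not tested, and the Snai3 level is uncertain.

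The detection level was reached by 4 of the 5 genes in each library, against 60.9% of protein-coding genes and 34.4% of all gene rows. The median protein-coding gene had a mean of 4.68 TPM. Intervals were apart in both libraries for 9 of the 10 gene pairs, and 8 of these differed by more than 3 SD; Snai1 and Snai2 were apart by less than that, and Snai2 and Zeb2 were not apart. Without length correction the Snai1 to Zeb2 order turned: their log2 ratio was -1.07 on expected counts and 0.43 ± 0.02 on TPM. Together the Snail genes had 165 and 164.55 TPM and the Zeb genes 88.4 and 85.2 TPM. Snai1 made up 58.6% and 52.8% of the Snail sum, and Zeb2 80.8% and 76.5% of the Zeb sum.

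**Figure D1:**
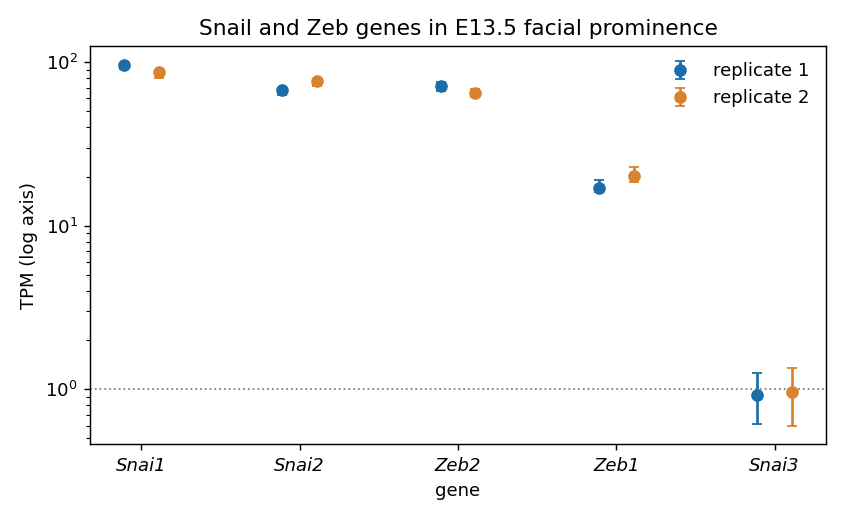
TPM of the 5 genes on a log axis in replicate 1 (left point, blue) and replicate 2 (right point, orange), with the authors' 95% credibility intervals as bars. Snai1, Snai2 and Zeb2 sit between 65.2 and 96.7 TPM, Zeb1 near 18.5 TPM and Snai3 at the dotted detection level of 1 TPM.

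The level of each gene was also set side by side between libraries. On TMM-scaled expected counts (edgeR), replicate 1 over replicate 2 was 0.24 on the log2 scale for Snai1 (95% Clopper-Pearson interval 0.16 to 0.32, counting error only) and -0.11 for Snai2 (-0.19 to -0.03). The size of the Snai1 ratio was above that of 66.6% of genes. Zeb1 was at -0.06, Zeb2 at -0.01 and Snai3 at 0.02, each with an interval that spans 0. None of the 5 (0 of 5) passed 1.5-fold, and 12.8% of 17707 genes with a mean count of 10 or more did. Scaling on the spike-in totals shifted every gene by -0.54, which turned Snai1 to -0.31 and took Snai2 to -0.65 and Zeb1 to -0.60, past 1.5-fold. The median gene was then at -0.55, itself close to 1.5-fold. The share of all genes past 1.5-fold with this scaling was not counted, so these calls do not set Snai2 and Zeb1 apart. The spike-in share of counts was 6.27% in replicate 1 and 4.45% in replicate 2.

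**Figure D2:**
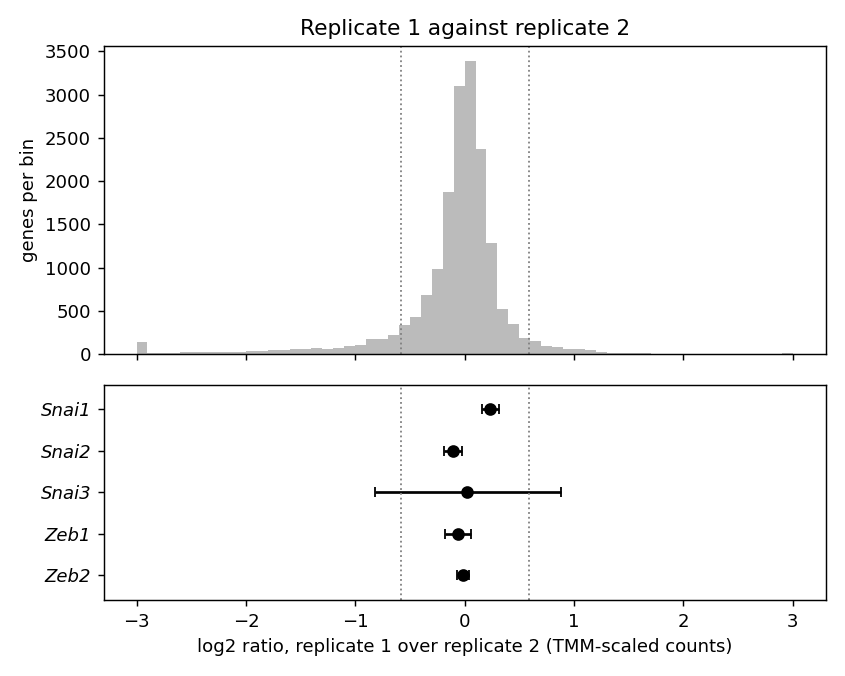
The upper panel counts genes by log2 ratio of replicate 1 over replicate 2 on TMM-scaled counts, and the lower panel gives the 5 genes with 95% intervals. Dotted lines mark 1.5-fold, and all 5 points lie between them.

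Each Snail gene had 1 transcript in the tables. Zeb2 had 14 annotated transcripts, of which 7 reached 5% of its TPM in either library. Zeb2-201, a full-length coding transcript, held 19.9% in replicate 1 (14.2 TPM, interval 11.3 to 16.2) and 30.9% in replicate 2 (20.2 TPM, 16.9 to 21.7). Zeb2-214, also full-length by its coding sequence but with a 3′ UTR of 172 nt that holds no miR-200 site, had 18.2% and 5.89%. These 2 transcripts had intervals apart between the libraries, in opposite directions, while the gene total did not. Zeb2-209, which retains an intron, held 18.1% and 20.1%.

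Transcripts with at least 1 miR-200 site held 47.4% of Zeb2 TPM in replicate 1 and 61.8% in replicate 2. For Zeb2-202 the deposited model is 9113 nt long and the M21 model 5624 nt, so its M21 UTR may differ from that quantified. Without it the shares were 39.8% and 49.5%. Zeb1 transcripts with a site held 55.4% and 46.8%. Only transcripts with an annotated coding sequence that ends in a stop codon had a 3′ UTR to search. The others count in the total, so the rest of the TPM is not shown to lack a site.

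Zeb2 transcripts started in 3 places, as M21 gives them. The start farthest upstream, used by Zeb2-212, held 3.58% and 5.48% of TPM. The next, around chr2:45112890-45113508 with 8 transcripts, held 55.8% and 54.7%, of which coding transcripts made up 23.5% and 24.3% of the gene. The last, at chr2:45110288-45111076, held 40.7% and 39.8%, nearly all coding (40.2% and 38.8%). The start shares were close between libraries, unlike those of Zeb2-201 and Zeb2-214, which share the last start. The antisense RNA Zeb2os, at chr2:45110707-45114087, covers the middle starts but not the starts of Zeb2-201 and Zeb2-214. It had 18.96 and 22 expected counts, few beside those of Zeb2, and whether the pair shares reads was not tested either.

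Zeb1 had 11 transcripts, 6 of them at 5% or more. Zeb1-201, the full-length coding form, held 47.1% and 43.4% of TPM, and Zeb1-204, with a retained intron, 24.1% and 23.3%. The opposite-strand RNA Gm10125 overlaps the Zeb1 start and had 88.88 and 55 expected counts, which without strand may share reads with Zeb1. Classes other than protein-coding together made 52.8% and 43.0% of Zeb1 TPM and 32.6% and 31.4% of Zeb2 TPM. For Zeb1 these include nonsense-mediated decay transcripts, which have an annotated coding sequence, at 8.25% and 3.34%. TPM gives short transcripts weight per read, and by expected counts coding transcripts held 75.0% and 77.0% of Zeb1 and 77.7% and 79.4% of Zeb2.

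**Figure D3:**
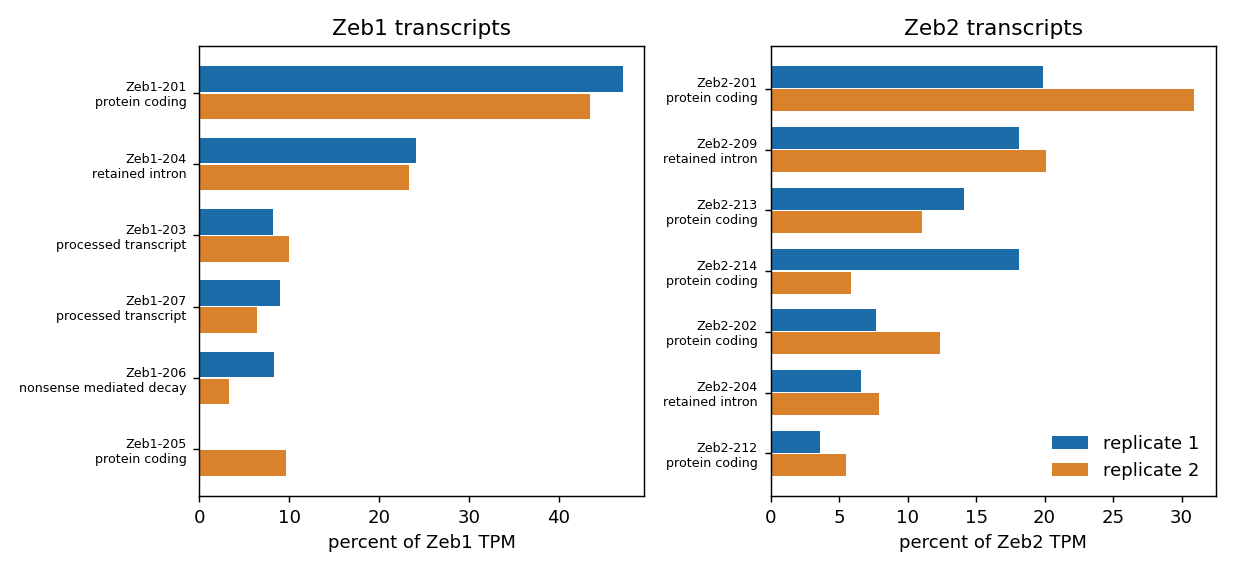
Percent of Zeb1 TPM (left) and of Zeb2 TPM (right) on each transcript at 5% or more in either library, replicate 1 above replicate 2. Zeb2-201 and Zeb2-214 differ most between libraries, while Zeb1-201 leads Zeb1 in both at 47.1% and 43.4%.

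Co-repressors that Snail and Zeb proteins recruit were all present: 20 of 20 listed genes had 1 TPM or more in both libraries, with a median of 47.1 TPM. The number detected in this and each later list stands beside 60.9% of all protein-coding genes. The deacetylase Hdac2 had 246 TPM in replicate 1 and 271 TPM in replicate 2, and Ctbp1, the co-repressor of Zeb proteins, 194 and 221 TPM. Hdac1 averaged 183 ± 2.97 TPM, the histone methyltransferase Ezh2 108 ± 1.41 TPM and Ctbp2 76.1 ± 8.64 TPM. The lowest were Rcor1 at 9.84 TPM and the LIM protein Wtip at 5.93 TPM. Of the genes for Snail protein turnover and phosphorylation, 13 of 14 were detected, with a median of 19.4 TPM. Csnk1a1, a casein kinase, averaged 226 ± 13.7 TPM, the phosphatase Ctdsp1 69.7 ± 1.79 TPM, and Gsk3b, which marks Snai1 for destruction, 56.0 ± 2.54 TPM. The signalosome subunit Cops2 had 65.1 TPM and the ubiquitin ligase subunit Fbxl5 45.8 TPM. The ligase subunit Fbxl14 had 2.67 TPM. The deubiquitinase Usp27x, the gene not detected, had 0.97 TPM in replicate 1 and 1.32 TPM in replicate 2. With spike-in RNA left out of the TPM total, all 14 were detected.

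Of the listed Smads, a family whose members Zeb proteins bind, 6 of 6 were detected, from Smad1 at 39.0 TPM through Smad2 (37.6), Smad5 (32.0), Smad3 (23.1) and Smad4 (20.9) to the inhibitory Smad7 at 4.94 TPM. All 12 other EMT and E-box factors were detected (median 117 TPM). The HLH inhibitors Id3 and Id2 averaged 438 ± 32.1 and 379 ± 19.7 TPM. The bHLH factor Tcf4 had 269 TPM, Id1 140 TPM and the homeobox factor Prrx1 137 TPM. Foxc2 and Klf8 were lowest, at 2.47 and 2.08 TPM. The neural relatives of the Snail genes, Scrt1 and Scrt2, had 0.06 and 0.11 TPM and were not detected.

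All 16 of the listed epithelial genes that Snail or Zeb proteins are known to repress were detected, with a median of 16.3 TPM. In bulk RNA these genes and the Snail and Zeb genes may come from different cells, and repression was not tested. The adhesion molecule Epcam had 64.2 TPM in replicate 1 and 101 TPM in replicate 2, and E-cadherin, Cdh1, had 28.5 and 34.2 TPM. The keratins Krt8 and Krt18 had 31.6 and 27.8 TPM in replicate 1, against 72.2 and 46.5 TPM in replicate 2. Pkp3, a desmosome plaque protein, averaged 39.3 ± 9.87 TPM, and the polarity protein Crb3 and tight-junction protein Tjp3 were lowest at 5.77 and 3.29 TPM. Of the 16 genes, 3 (Cldn3, Krt8 and Krt18) were past 1.5-fold, all higher in replicate 2, beside 12.8% of all genes in either direction. Replicate 2 is also the library in which the summed liver, heart and erythroid marker levels were higher. Whether that cell mix bears on them was not tested. The epithelial factors opposed to Snail and Zeb had 11 measurable genes, all detected, with a median of 9.33 TPM. They were led by Klf5 at 21.5 TPM, the splicing regulators Esrp1 (21.04 and 20.98 TPM in replicates 1 and 2) and Esrp2 (mean 18.2), Grhl3 (19.5) and Klf4 (16.7), with Ovol2 at 2.43 and Elf5 at 1.34 TPM.

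Mesenchymal genes of EMT were detected in 11 of 12 cases, with a median of 97.3 TPM. The matrix protein Sparc averaged 985 ± 30.6 TPM and the intermediate filament Vim 745 ± 59.3 TPM. Cdh11, Mmp2 and Fn1 had 195, 178 and 158 TPM, and S100a4 had 14.5 TPM. Of the neural crest specifiers, 10 of 12 were detected, with a median of 39.4 TPM. Msx1 had 420 TPM and Sox9 80.9 TPM in replicate 1 and 119 TPM in replicate 2, while Tfap2b, Myc and Pax3 averaged 75.0, 67.5 and 61.7 TPM. Foxd3 and Zic1, which mark early crest, had 0.73 and 0.365 TPM. The medians stand beside 4.68 TPM for all protein-coding genes and 18.9 TPM for those detected. The repressed epithelial genes and the opposed factors lay below the value for detected genes. These lists were not chosen at random.

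**Figure D4:**
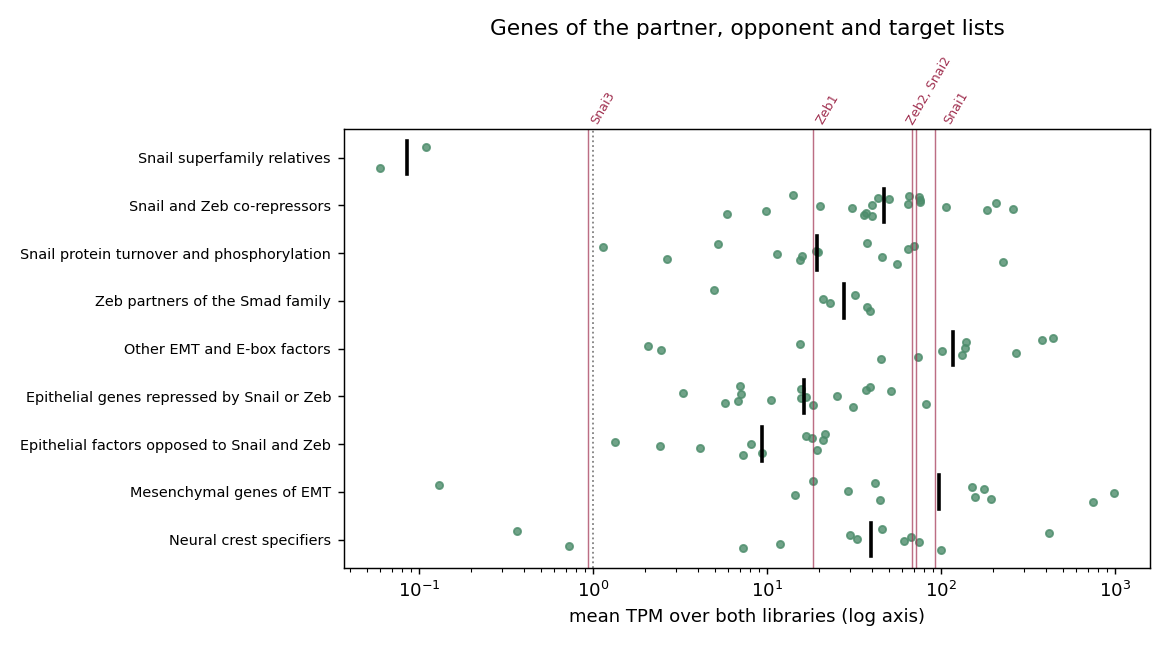
Mean TPM over both libraries on a log axis for each gene (points) of the partner, opponent and target lists, with the median as a black bar. Red lines mark the 5 genes and the dotted line 1 TPM. The median of the repressed epithelial genes, 16.3 TPM, lies below Snai1, Snai2 and Zeb2, and repression was not tested.

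The promoters of the repressed genes were read for the Snail and Zeb motif, CACCTG on either strand, in RefSeq windows from 250 bases before to 50 after each start (GRCm38.p6). The motif was in 20.2% of all 32851 windows and in at least 1 window of 22.3% of protein-coding genes. Of the repressed epithelial genes, Cdh1 (E-cadherin) and Pkp3 were among those without a window, so they were not read. The 11 genes with windows all held the motif, in 14 of 17 windows. That list was drawn from genes known to be repressed, often through such motifs, so this is not independent. Opposed epithelial factors had it in 3 of 6 genes, co-repressors in 2 of 17, turnover genes in 2 of 11, other EMT factors in 0 of 9, Smads in 0 of 3, and mesenchymal and crest genes in 1 of 7 each. Epcam, the highest of the repressed genes, is shown with Crb3, which had the most motifs, 4 (motif in capitals). Where a gene had several windows, that with the most motifs is shown. The Epcam window is chr17:87635729-87636028 and that of Crb3 is chr17:57061951-57062250, both on the plus strand.
Epcam: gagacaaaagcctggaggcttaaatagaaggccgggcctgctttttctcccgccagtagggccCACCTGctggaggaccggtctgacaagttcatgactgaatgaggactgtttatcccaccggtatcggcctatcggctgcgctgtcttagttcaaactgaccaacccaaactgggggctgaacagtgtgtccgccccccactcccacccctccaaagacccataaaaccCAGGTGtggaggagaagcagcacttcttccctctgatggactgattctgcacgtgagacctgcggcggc
Crb3: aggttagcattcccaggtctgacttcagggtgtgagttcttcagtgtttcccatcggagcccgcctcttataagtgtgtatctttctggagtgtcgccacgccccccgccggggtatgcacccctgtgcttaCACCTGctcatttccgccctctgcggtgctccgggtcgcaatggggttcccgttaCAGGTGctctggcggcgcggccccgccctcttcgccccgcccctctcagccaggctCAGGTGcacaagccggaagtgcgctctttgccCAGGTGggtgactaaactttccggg

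The motif lay at bases -187 and -19 from the Epcam start and at -118, -63, -7 and 26 from the Crb3 start. Snai1 itself had 1 motif, at -126 (chr2:167537945-167538244, plus strand), shown because Snai1 protein is known from human cells to bind its own promoter. The Zeb2 windows shown are of the RefSeq starts nearest to the leading transcripts of its 2 main starts. They had no motif (chr2:45113204-45113503 for the middle start, chr2:45110228-45110527 for the last, both minus strand). The last window is set on chr2:45110277, near the Zeb2-214 start at chr2:45110288. The Zeb2-201 start, chr2:45110515, lies near its upstream end, so the sequence before that start was mostly not read. Snai2, Snai3 and Zeb1 had no window.
Snai1: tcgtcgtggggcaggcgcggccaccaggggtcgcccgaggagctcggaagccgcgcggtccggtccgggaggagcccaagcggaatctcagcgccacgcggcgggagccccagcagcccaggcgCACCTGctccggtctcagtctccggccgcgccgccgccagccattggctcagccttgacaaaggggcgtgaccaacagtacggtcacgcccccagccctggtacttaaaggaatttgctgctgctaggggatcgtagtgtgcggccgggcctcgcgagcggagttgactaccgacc
Zeb2 middle start: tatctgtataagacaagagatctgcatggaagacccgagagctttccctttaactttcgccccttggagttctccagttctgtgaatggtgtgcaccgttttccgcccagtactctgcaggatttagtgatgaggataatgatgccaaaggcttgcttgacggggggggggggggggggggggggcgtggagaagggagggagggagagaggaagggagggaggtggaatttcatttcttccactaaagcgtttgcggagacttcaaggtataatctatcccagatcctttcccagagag
Zeb2 last start: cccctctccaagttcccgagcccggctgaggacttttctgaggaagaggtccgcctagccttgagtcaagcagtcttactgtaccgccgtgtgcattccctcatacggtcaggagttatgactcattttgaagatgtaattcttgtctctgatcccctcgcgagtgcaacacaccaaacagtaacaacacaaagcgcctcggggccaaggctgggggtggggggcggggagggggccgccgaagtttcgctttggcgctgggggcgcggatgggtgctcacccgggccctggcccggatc

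**Figure D5:**
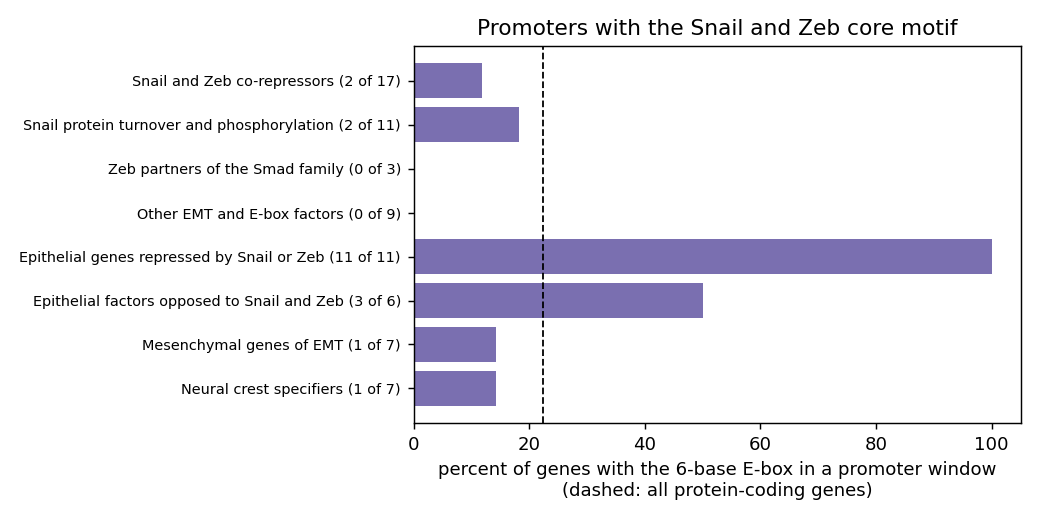
Percent of genes in each list with at least 1 CACCTG or CAGGTG in a promoter window, with the number of genes in brackets and all protein-coding genes as a dashed line at 22.3%. The repressed epithelial genes with a window, which leave out Cdh1, are at 100%.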

How the data were processed

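Total RNA-seq tables of 2 libraries were used, from 10 ng of input RNA, longer than 200 nt, with ERCC spike-ins per the labels. The assembly is mm10 per the submitters' processing notes, and the annotation GENCODE M4 per the deposited notes; aligner, quantifier and strand are not given in the sources used here. Per the file headers, the deposited expected counts are estimated counts per gene or transcript, and the deposited TPM and FPKM are scaled by effective length, with spike-in rows in the total (13.4% and 9.68% of TPM), which lowers gene TPM. The upper credibility bound of TPM is a signal in TPM that the authors deposited, as are the posterior means and lower bounds. Symbols came from GENCODE M21, matched for 42462 of 43346 rows. ERCC and number-only rows (0.000171% and 0.000151% of counts) stayed out of library sizes.

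The genes and lists were chosen with earlier results of these data known. Named from each list are the 5 highest and 2 lowest genes by mean TPM, or every gene of a list of 6 or fewer, except 1 gene that is not reported here; Cldn3 and the promoters shown were chosen after their values were seen. A pair was apart where the 95% credibility intervals did not overlap in either library. Expected counts were scaled with edgeR 4.0.16 (TMM), with DESeq2 1.42.0 size factors and spike-in totals as alternatives, in R 4.3.3. With 1 group no p-value was computed. Transcript sites and motifs were counted with Python 3.11.15. The credibility intervals cover counting and assignment error only, and the Clopper-Pearson intervals counting error only.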

Additional observations from a re-analysis of the deposited data

How the results depend on the processing

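Of the values recomputed under alternatives, 149 kept their call or stayed within the replicate spread and 25 moved by more than it. Part of the 149 could not have changed. With 2 libraries, leaving out 1 always moves a mean by less than the SD. Pairs apart in both libraries likewise stay apart in each. Of the 149, 4 log2 ratios that passed no threshold changed sign: Snai1 (-0.31) and Snai3 (-0.52) between libraries with spike-in scaling, Zeb2 between libraries (0.0059) with no count filter, and Snai2 over Zeb2 (-0.084) without replicate 2. Units set the level. Mean levels as TPM rescaled to gene rows, as FPKM and as CPM of expected counts were 104.0, 63.1 and 101.5 for Snai1, 81.4, 49.4 and 100.8 for Snai2, and 1.06, 0.645 and 1.01 for Snai3. They were 20.9, 12.7 and 46.3 for Zeb1, and 77.3, 46.9 and 213 for Zeb2. On expected counts with no length correction, the log2 ratio of Snai1 over Snai2 was 0.0068, no longer apart, that of Snai1 over Zeb2 was -1.07, the reverse of the TPM order, and that of Snai2 over Zeb2 was -1.08. Leaving out either replicate gave Snai2 over Zeb2 a range of -0.084 to 0.23, and without replicate 1 the pair was called apart. With spike-in scaling, replicate 1 over replicate 2 was -0.65 for Snai2 and -0.60 for Zeb1, beside -0.55 for the median gene. Zeb1-201 held 74.6% of expected counts and 41.5% of posterior mean TPM. Its share of coding TPM was 88.0 ± 16.6% (SD over the libraries), and that of Zeb2-201 was 37.3 ± 11.0%, so both varied between libraries. Among detected protein-coding genes the percentiles were 87.6 for Snai1, 83.9 for Snai2, 83.1 for Zeb2 and 49.4 for Zeb1. Snai3 was at 0 there by construction, as it was not itself detected. Among all protein-coding genes Snai3 was at 35.3 by posterior mean TPM. No paired analysis was possible because there is 1 group. Snai3 rests on 29 and 23 counts, so its depth limits any comparison between libraries.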
